A study of Mus musculus with 12 samples.

Results

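The peroxisome proliferator-activated receptors PPARα and PPARδ and the retinoid X receptors RXRα, RXRβ and RXRγ are nuclear receptors that bind DNA as PPAR/RXR pairs. Fatty acids and their derivatives are ligands of the PPARs, and the pair acts on genes of lipid uptake, storage and oxidation. PPARα is known for driving fatty acid oxidation in brown fat, PPARδ does so in muscle and many other tissues, and RXRs also pair with the retinoic acid, thyroid hormone, vitamin D and liver X receptors. RXRγ is the RXR of restricted expression, while RXRα and RXRβ are found broadly. The genes followed here were Ppara, Ppard, Rxra, Rxrb and Rxrg, that is, the PPAR and RXR genes apart from Pparg.

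Chromatin accessibility was measured by ATAC-seq, which counts the cuts of a transposase in open chromatin and says nothing of messenger RNA. A peak was taken as a member when the deposited table gave it the symbol of one of the 5 genes, a choice that used no accessibility value. This gave 65 of 98116 peaks, namely 35 of 58558 in brown fat and 30 of 39558 in inguinal white fat (iWAT). Rxra held most of them, with 17 peaks in brown fat and 20 in iWAT, followed by Ppara with 7 and 2, Ppard with 5 and 4 and Rxrg with 6 and 3. Rxrb had 0 in brown fat and 1 in iWAT.

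All mice were C57BL/6 and carried floxed alleles of BAF60a, the SWI/SNF chromatin remodelling subunit encoded by Smarcd1. Flox mice had no Cre. AKO mice also carried Adiponectin-Cre, which acts in adipocytes, so that the other cells of the whole tissue kept BAF60a. Brown fat came from 3 flox and 3 AKO mice, 1 mouse per sample, at an age and housing temperature not given in the sources used here. For iWAT, fat pads of 6 mice per genotype, aged 6 to 8 months and kept at 10 °C for 7 days, were pooled and divided into 3 aliquots, so that the spread within a genotype was technical and iWAT p-values cover no difference between mice.

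Values are normalized reads, that is, the reads of a peak over the size factor of its sample, and the tissues were scaled separately. Reads in peaks ranged from 10115267 to 27500738 over the flox and from 6336670 to 13821838 over the AKO brown fat samples. In iWAT they ranged from 4237080 to 6691161 over the flox and from 4066720 to 4420019 over the AKO aliquots. In brown fat, an intronic Smarcd1 peak at chr15:99704113-99704521 held 136, 201 and 185 normalized reads in flox against 23.7, 57.9 and 26.9 in AKO samples. iWAT had a Smarcd1 peak at the start site alone, which did not check the deletion. Thermogenic adipocyte markers (Ucp1, Cidea, Ppargc1a, Dio2, Prdm16) were lower without overlap of the genotypes at 28 of 68 brown fat peaks and higher at 0. Their summed level per kb ran from 463 to 551 in flox and from 312 to 340 in AKO samples, while it overlapped in iWAT, with 120 to 143 against 131 to 145. For the general adipocyte markers (Adipoq, Plin1, Fabp4, Lipe, Cidec) the brown fat ranges were 695 to 775 and 481 to 672, and for the fibroblast and preadipocyte markers (Pdgfra, Pdgfrb, Dpp4, Col1a1) 278 to 287 and 295 to 315. By peak the general adipocyte markers were mixed, with 7 of 22 lower and 3 higher without overlap. The fibroblast markers had 0 of 12 lower and 6 higher. Beside these marker counts, 8.84% of all brown fat peaks were lower and 8.77% higher without overlap. The endothelial (Pecam1, Cdh5, Kdr, Tie1, Tek), macrophage (Adgre1, Csf1r, Cd68, Mrc1) and skeletal muscle (Ckm, Acta1, Myh4, Mylpf, Ttn) ranges overlapped in brown fat. In iWAT the endothelial range was 145 to 162 in flox and 127 to 140.1 in AKO and the muscle range 383 to 477 and 363 to 381, while the adipocyte, fibroblast and macrophage ranges overlapped. Of the markers named, Ckm, Mylpf, Cd68 and Csf1r had no brown fat peak, and Ckm, Myh4, Ttn, Tie1, Cd68 and Mrc1 had no iWAT peak, so that the iWAT muscle range rests on 2 peaks, as do the macrophage ranges of both tissues. In whole tissue, fewer cells of a type and less open chromatin per cell cannot be told apart, and the part of cell makeup in the results on the receptor genes was not tested.

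The Ppara peaks were one-sided within each tissue, and in opposite directions. In brown fat all 7 were lower in AKO than in flox, with a median log2 fold change of -0.40 (range -0.60 to -0.19), against 0.01 over all peaks of the table. In iWAT both peaks were higher in AKO, at 0.42 and 0.34. None of these passed the limma test at an adjusted p of 0.1 over all peaks, nor did any of the other peaks in either table (0% called lower and 0% called higher in each). The intronic Smarcd1 peak of brown fat, with a log2 fold change of -2.98 ± 0.27, had a limma adjusted p of 0.269. The smallest adjusted p over all of Ppara's peaks in the limma fit was 0.536 in brown fat and 0.289 in iWAT.

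Other readings bear on how far the values lay from each other. The genotypes were said not to overlap at a peak when all 3 AKO samples were below, or all 3 above, the 3 flox samples. Of all brown fat peaks, 8.84% were lower in AKO in this sense and 8.77% higher. In iWAT these shares were 10.3% and 10.6%. An unadjusted limma p under 0.05 was reached by 5.59% of brown fat peaks lower in AKO and 3.46% higher, and by 7.42% and 7.61% in iWAT. Over the 35 brown fat member peaks, 4 were lower and 2 higher without overlap, and 4 were lower and 3 higher at an unadjusted p under 0.05. Scaled by total reads in peaks, 2 brown fat member peaks were lower and 3 higher without overlap, so that the balance turned. Over the 30 iWAT member peaks, 1 was lower and 10 were higher without overlap, and 0 were lower and 7 higher at an unadjusted p under 0.05. The median log2 fold change of all members was 0.03 in brown fat and 0.16 in iWAT, against 0.01 and -0.00 over all peaks.

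The start site of Ppara (chr15:85735564, plus strand) lay in the brown fat member peak with most reads, chr15:85734484-85736673, which spans exon 1. It held 3629, 3267 and 2626 normalized reads in flox and 2367, 1783 and 2467 in AKO samples. Every AKO sample was below every flox sample. The fitted log2 fold change was -0.19 ± 0.17 (SE, n = 3 against 3, limma adjusted p = 0.777) with PC1, the first principal component of the samples, as a covariate and -0.53 without it. PC1 ran from -98.2 in flox replicate 1 to 112 in AKO replicate 2, the deepest and the shallowest brown fat libraries.

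Upstream of the start, the brown fat peak at -10.9 kb (chr15:85723989-85725263) held 2212, 2099 and 1754 normalized reads in flox and 1529, 1217 and 1269 in AKO samples. Here too every AKO sample was lower, by a log2 fold change of -0.39 ± 0.19 (limma adjusted p = 0.591), or -0.59 without PC1. The last peak of intron 2, at 36.4 kb (chr15:85771467-85772413), held 534, 524 and 532 in flox and 386, 467 and 413 in AKO samples. Its genotypes did not overlap either, with a log2 fold change of -0.43 ± 0.18 (limma adjusted p = 0.548). The flox samples of this peak were nearly equal, at 529.9 ± 5.28 (mean ± SD, n = 3). When reads were scaled by their total in peaks, the genotypes still did not overlap at the start and at -10.9 kb but did at 36.4 kb.

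The other Ppara peaks of brown fat overlapped between the genotypes. In intron 2, the peak at 20.5 kb held 694, 834 and 1044 normalized reads in flox and 700.0, 825 and 731 in AKO samples, and its fitted log2 fold change was -0.46 ± 0.19 (limma adjusted p = 0.540). The one at 27.5 kb had the smallest p of the gene, with 92.5, 113 and 186 in flox and 99.997, 129 and 113 in AKO samples. Its means were 131 ± 49.3 and 114 ± 14.7 (SD), and the fitted log2 fold change of -0.60 ± 0.24 (limma adjusted p = 0.536) became -0.14 without PC1 and -0.21 without flox replicate 3, its highest sample. At 10.8 kb and -3.4 kb the log2 fold changes were -0.40 and -0.29. Summed over its 7 peaks, Ppara held normalized reads of 7849, 7862 and 6968 in flox mice and of 5834, 5091 and 5639.6 in AKO mice, so that the sums did not overlap. The summed levels of the thermogenic and general adipocyte markers were lower in the same AKO mice, although single general adipocyte peaks went both ways. The part of these markers in the Ppara values was not tested. All 7 peaks had a negative fold change in each of the 17 fits run for brown fat. These fits used other scalings, tests and pseudocounts or left out each sample in turn. All of them reuse the same mice, so that they are not independent of each other.

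**Figure D1:**
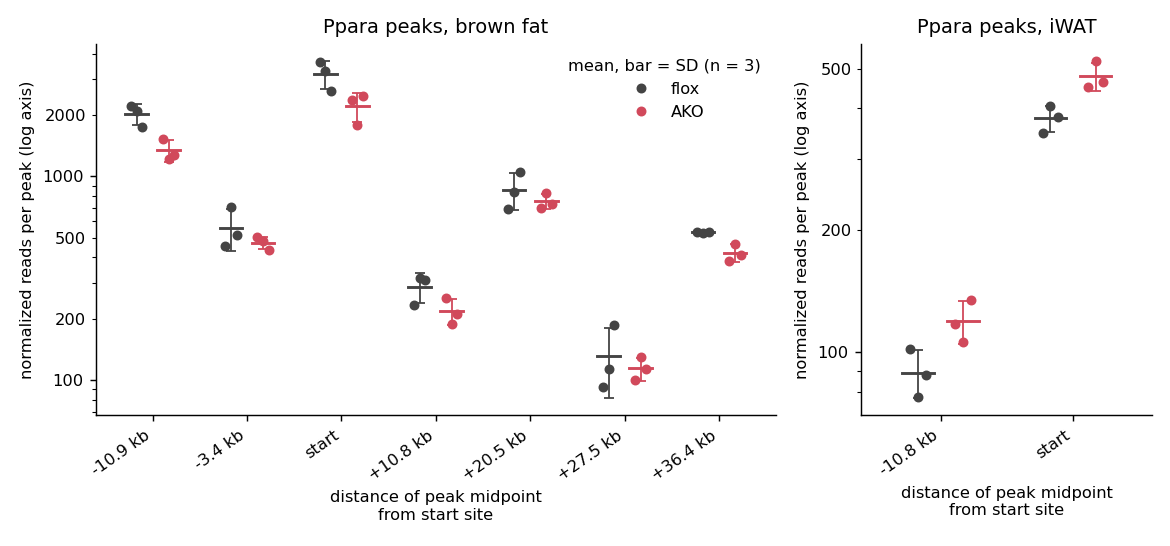
Normalized reads per peak (log axis) at each Ppara peak in brown fat (left) and iWAT (right), ordered by the distance of the peak's midpoint from the start site. Dots are the 3 samples of a genotype, the line is their mean and the bar the SD. The AKO samples lie below the flox samples without overlap at -10.9 kb, the start and 36.4 kb in brown fat, and above them at both iWAT peaks.

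In iWAT, Ppara had peaks at the start and upstream only. The start peak (chr15:85735091-85736136) held 348, 405 and 379.6 normalized reads in flox and 451, 523 and 463 in AKO aliquots, the reverse order of brown fat, with a log2 fold change of 0.34 ± 0.14 (limma adjusted p = 0.301). The upstream peak (chr15:85724358-85725087) held 102, 77.8 and 87.8 in flox and 118, 106 and 135 in AKO aliquots, with a log2 fold change of 0.42 ± 0.16 (limma adjusted p = 0.289). At neither peak did the genotypes overlap. The start peak was the only member peak that DESeq2 called on the recovered reads, with an adjusted p of 0.0953, and edgeR called it as well, with an adjusted p of 0.0265. DESeq2 called 0.546% of tested iWAT peaks higher and 0.63% lower, and edgeR called 2.15% higher and 2.52% lower. In brown fat the shares were 0.11% and 0.298% by DESeq2 and 0.029% and 0.114% by edgeR, where neither DESeq2 nor edgeR called a member peak.

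Sequences of Ppara are shown for the upstream peak, whose genotypes did not overlap in either tissue, and for the intron 2 peaks whose centre held a match to the PPAR response element, since that element is what PPAR/RXR pairs bind. The search took AGGTCA, 1 base, AGGTCA with up to 3 mismatches, C/EBP as TTGC joined to GCAA with up to 1 mismatch, EBF as TCCC, 2 bases, GGGA without mismatch, and NF1 as TTGGC, 5 bases, GCCAA with up to 1 mismatch, each on both strands of the central 200 bases of a peak. AGGTCA alone, without mismatch, was searched besides and overlaps the first of these. Capitals mark every match.
Ppara upstream, centre of the stretch shared by both tissues, mm10 chr15:85724623-85724822, plus strand: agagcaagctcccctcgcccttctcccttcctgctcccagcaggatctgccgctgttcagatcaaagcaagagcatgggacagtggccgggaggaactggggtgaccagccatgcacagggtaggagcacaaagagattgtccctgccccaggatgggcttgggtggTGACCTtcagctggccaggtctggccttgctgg
Ppara intron 2, 20.5 kb, mm10 chr15:85755943-85756142, plus strand: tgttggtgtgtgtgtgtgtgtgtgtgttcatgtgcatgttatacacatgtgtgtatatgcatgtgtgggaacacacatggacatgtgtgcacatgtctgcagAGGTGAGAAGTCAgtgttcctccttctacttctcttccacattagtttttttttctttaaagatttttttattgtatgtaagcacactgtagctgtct
Ppara intron 2, 36.4 kb, mm10 chr15:85771841-85772040, plus strand: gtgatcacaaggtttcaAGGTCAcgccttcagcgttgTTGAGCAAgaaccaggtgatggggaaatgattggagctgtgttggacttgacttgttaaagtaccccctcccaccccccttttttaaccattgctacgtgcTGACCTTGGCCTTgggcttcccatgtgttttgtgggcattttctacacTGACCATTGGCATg

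The upstream stretch held 1 AGGTCA on the minus strand and no match to the longer elements. At 20.5 kb there was a PPAR element with 2 mismatches. The 36.4 kb window held 2 PPAR elements with 3 mismatches each, a C/EBP match with 1 mismatch and 2 copies of AGGTCA, of which 1 lies inside a PPAR element.

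Over all members, a PPAR element was found at the centre of 5 of 35 brown fat peaks (14.3%), against 23.4% of all peaks, and of 4 of 30 iWAT peaks (13.3%), against 20.3%. With up to 2 mismatches the brown fat comparison turned, with 2 of 35 (5.71%) against 4.57% of all peaks, and in iWAT it was 0 of 30 against 3.61%. The brown fat matches lay in Ppara at -3.4, 20.5 and 36.4 kb and in Ppard at 3.8 and 8.4 kb. The iWAT matches lay in the same Ppard peak of intron 1 and in Rxra at -77.7, -72.4 and 81.5 kb. Ppara thus had matches in 3 brown fat peaks and in 0 of its 2 iWAT peaks. C/EBP matches were found in 2 brown fat member peaks, Ppara at 36.4 kb and Rxra at 25.3 kb, and in 1 iWAT peak. All brown fat peaks held one in 5.28% and all iWAT peaks in 5.45%, against 5.71% and 3.33% of the members. EBF and NF1 matches were found in 0 of either, against 1.84% and 1.44% of all brown fat peaks and 1.203% and 1.077% of all iWAT peaks. AGGTCA alone was found in 4 of 35 and 2 of 30 member peaks, against 16.7% and 13.3% of all. These are matches of letters, not binding.

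The starts of Ppara and Rxrg are shown because their genotypes did not overlap in either tissue and their base composition is unlike. The 200 bases just before each start are shown with every CG in capitals.
Ppara start, mm10 chr15:85735364-85735563, plus strand: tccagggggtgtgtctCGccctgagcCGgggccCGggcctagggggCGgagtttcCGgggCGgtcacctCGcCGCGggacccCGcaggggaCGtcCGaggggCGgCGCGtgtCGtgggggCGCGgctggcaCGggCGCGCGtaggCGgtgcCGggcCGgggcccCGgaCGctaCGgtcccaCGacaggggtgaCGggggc
Rxrg start, mm10 chr1:167598184-167598383, plus strand: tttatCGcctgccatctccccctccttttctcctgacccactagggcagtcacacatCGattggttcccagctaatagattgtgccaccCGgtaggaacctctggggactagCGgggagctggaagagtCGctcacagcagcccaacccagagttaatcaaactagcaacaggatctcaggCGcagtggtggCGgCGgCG

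The Ppara window held 80.5% G and C and 30 CG, the Rxrg window 57.5% and 9. Among central 200-base windows, the 5 brown fat member peaks over a start site had a median of 70.5% G and C (59.5 to 80.0%) and 21 CG, the other 30 had 57.0% and 3, and brown fat peaks as a whole had 53.0% and 3. In iWAT the 6 peaks over a start had 71.5% and 19 CG, and the other 24 had 57.0% and 3.

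Rxrg, the retinoid X receptor of restricted expression, had higher values in AKO at its start in both tissues. The brown fat peak (chr1:167598209-167598741, over the start at 167598384, plus strand) held 158, 204 and 146 normalized reads in flox and 213, 207 and 206 in AKO samples. The iWAT peak (chr1:167598298-167598653) held 44.9, 46.7 and 58.5 in flox and 68.0, 69.6 and 78.1 in AKO aliquots. The genotypes did not overlap in either tissue. The log2 fold changes were 0.36 ± 0.22 (limma adjusted p = 0.662) and 0.52 ± 0.15 (limma adjusted p = 0.203, the smallest of any member peak). Without flox replicate 3 the brown fat value was 0.11.

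The more accessible Rxrg site in both tissues was not this start but an internal one, the start of transcript Rxrg-202 in intron 2. Its peak (chr1:167617979-167618742 in brown fat) held 649.5, 546 and 508 normalized reads in flox and 534, 342 and 518 in AKO samples, with a log2 fold change of 0.07 ± 0.18, or -0.31 without PC1. In iWAT it held 160.4, 178 and 179.9 in flox and 197, 191 and 157 in AKO aliquots, with a log2 fold change of 0.07 ± 0.14. The genotypes overlapped in both tissues, and the sign in brown fat followed the covariate. The brown fat peak at -52.4 kb had the smallest p of the gene, with 89.9, 121 and 118 in flox and 59.8, 141 and 92.1 in AKO samples, which overlap, and a log2 fold change of -0.78 ± 0.27 (limma adjusted p = 0.505) or -0.24 without PC1. Of the 6 brown fat peaks of Rxrg, 3 were lower and 3 higher. Its sum of peaks ran from 986 to 1137 normalized reads over the flox mice and from 966 to 1083 over the AKO mice.

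**Figure D2:**
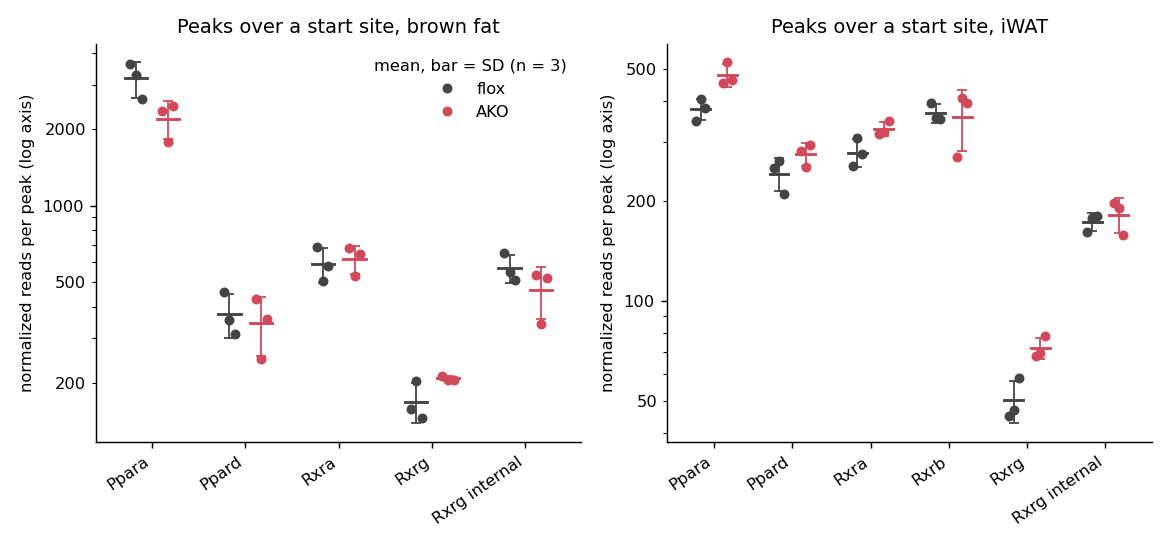
Normalized reads per peak (log axis) at every member peak that covers an annotated start site, in brown fat (left) and iWAT (right), with the 3 samples of each genotype as dots, their mean as a line and the SD as a bar. Ppara stands highest in brown fat with AKO below flox, while in iWAT the AKO aliquots are above flox at Ppara, Rxra and the first Rxrg start.

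Rxra, a broadly expressed partner of the PPARs, had peaks from -79.3 to 97.6 kb of its start in brown fat and from -80.5 to 116.5 kb in iWAT, most of them in the long intron 1 or upstream. In brown fat 13 of 17 had a positive fold change (median 0.15, range -0.31 to 0.64), in iWAT 14 of 20 (median 0.16, range -0.35 to 0.53). Among all peaks, 49.1% had a negative fold change in brown fat and 50.1% in iWAT. Without overlap, 1 brown fat Rxra peak was lower and 1 higher, beside 8.84% lower and 8.77% higher of all brown fat peaks. In iWAT 1 Rxra peak was lower and 7 were higher without overlap, beside 10.3% and 10.6% of all iWAT peaks. No call was made by limma, DESeq2 or edgeR at any Rxra peak.

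At the Rxra start (chr2:27677201, plus strand), the brown fat peak chr2:27676114-27677889 held 688, 504 and 577 normalized reads in flox and 679, 531 and 644 in AKO samples, which overlap, with a log2 fold change of 0.29 ± 0.20 (limma adjusted p = 0.698), or 0.072 without PC1. It ran from 0.18 without flox replicate 2 to 0.50 without flox replicate 3. In iWAT the start peak held 254, 308 and 275 in flox and 317, 322 and 349 in AKO aliquots, which do not overlap, with a log2 fold change of 0.24 ± 0.14 (limma adjusted p = 0.448). The iWAT peak with the smallest p of the gene lay at -5.2 kb and held 74.1, 78.9 and 85.2 in flox and 119, 95.9 and 105 in AKO aliquots, a log2 fold change of 0.41 ± 0.14 (limma adjusted p = 0.244). Its brown fat counterpart held 60.1, 78.3 and 64.7 against 76.3, 83.1 and 98.8, with a log2 fold change of 0.32 ± 0.23 and overlapping genotypes.

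Along the Rxra gene the brown fat peak without overlap and higher in AKO lay in intron 1 at 22.6 kb, with 263, 238 and 185 normalized reads in flox and 270.1, 278 and 337 in AKO samples and a log2 fold change of 0.58 ± 0.22 (limma adjusted p = 0.523). The iWAT peak over the same place had the other sign, with 185, 222 and 175 in flox and 166, 184 and 146 in AKO aliquots (log2 fold change -0.23 ± 0.16), and its genotypes overlapped. The reverse was seen at 37.2 kb. There, 236, 158 and 154 in flox stood against 134, 145 and 142 in AKO brown fat, a log2 fold change of -0.18 ± 0.24 (limma adjusted p = 0.851). In iWAT, 78.4, 74.5 and 85.2 in flox stood against 103, 122 and 95.2 in AKO aliquots, a log2 fold change of 0.42 ± 0.15 (limma adjusted p = 0.258). The genotypes did not overlap in either tissue, although in brown fat they did under scaling by total reads. The smallest p of the gene in brown fat was at 57.4 kb, with 77.9, 61.3 and 62.1 in flox and 87.6, 52.1 and 96.9 in AKO samples, which overlap, and a log2 fold change of 0.64 ± 0.22 (limma adjusted p = 0.506) or 0.19 without PC1.

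The most reads of Rxra in brown fat were in a broad peak at -79.3 kb, with 1454, 1255 and 1372 normalized reads in flox and 1170.1, 1255 and 1312 in AKO samples and a log2 fold change of -0.11 ± 0.19. It overlapped 2 iWAT peaks, of which the one at -77.7 kb was lower in AKO without overlap, with 258, 217 and 231 in flox and 186, 198 and 186 in AKO aliquots (log2 fold change -0.31 ± 0.13, limma adjusted p = 0.335). The other iWAT peaks higher without overlap lay at -32.0, 13.8, 63.2 and 81.5 kb, with log2 fold changes of 0.53, 0.51, 0.21 and 0.17. Without AKO replicate 3, 9 of the 17 brown fat Rxra peaks were negative and the median was -0.00, so that the positive count in brown fat rested on that sample.

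Ppard showed no peak without overlap in either tissue. Its start peak in brown fat (chr17:28232488-28232962, start at 28232700, plus strand) held 459, 354 and 313 normalized reads in flox and 429.9, 249 and 359 in AKO samples, with a log2 fold change of 0.34 ± 0.18 (limma adjusted p = 0.621), or -0.13 without PC1. In iWAT it held 252, 262 and 210.0 against 281, 252 and 294, with a log2 fold change of 0.20 ± 0.15 (limma adjusted p = 0.571). The intron 1 peak at 3.8 kb, the one with most reads in brown fat, held 794, 714 and 755 in flox and 762, 537 and 700.4 in AKO samples, with a log2 fold change of 0.02 ± 0.19 whose sign turned under 7 of the 17 fits. The smallest p of the gene was that of the intron 2 peak at 8.4 kb in brown fat, with 115, 78.3 and 101 in flox and 62.9, 83.1 and 71.0 in AKO samples and a log2 fold change of -0.50 ± 0.26 (limma adjusted p = 0.608). In iWAT it was that at -6.5 kb, which lies over an exon of Def6, with 61.3, 95.6 and 56.8 against 84.1, 100.5 and 103 and a log2 fold change of 0.45 ± 0.22 (limma adjusted p = 0.378). Both upstream peaks of Ppard lie over exons of Def6, the neighbouring gene.

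Rxrb was read from 1 iWAT peak, chr17:34031523-34032416, which covers 4 of its annotated starts and also exons of Slc39a7 and Gm20427, so that its reads cannot be told from those of the neighbour's promoter. It held 393, 355 and 352 normalized reads in flox and 271, 406 and 392 in AKO aliquots, with a log2 fold change of -0.06 ± 0.18 (limma adjusted p = 0.905). The value turned to 0.12 without AKO replicate 1, the lowest aliquot. In brown fat the start of Rxrb lay in a peak that the table assigns to Slc39a7 (chr17:34030930-34032458), with 1221, 1185 and 999 in flox and 1061, 794 and 1218 in AKO samples and a log2 fold change of 0.14 ± 0.19. The genotypes overlapped in both tissues.

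**Figure D3:**
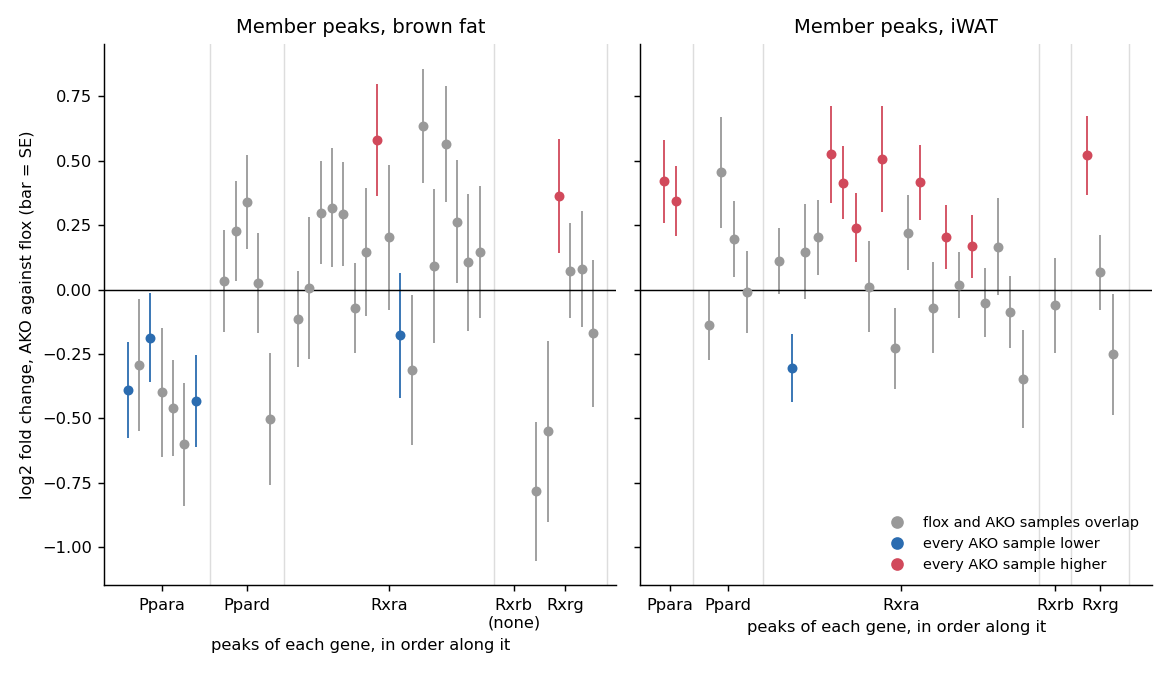
Log2 fold change of AKO against flox with its SE at each member peak, grouped by gene and ordered along it, in brown fat (left, 35 peaks) and iWAT (right, 30 peaks). Colour marks peaks whose genotypes do not overlap. All 7 brown fat Ppara peaks lie below 0 and most Rxra peaks lie above it in both tissues.

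Levels per kb of peak gave the order of the starts. In flox brown fat Ppara was first with 1449 ± 232 (SD, n = 3) normalized reads per kb, above Ppard with 790.0 ± 158, which overlapped the internal Rxrg start with 743 ± 95.6. Rxra with 332 ± 52.1 and the first Rxrg start with 318 ± 57.3 followed and overlapped each other. In AKO brown fat Ppara was still first but, with 1007 ± 169, its range reached that of Ppard with 728 ± 192. In flox iWAT the order was Ppard with 579 ± 66.3, Rxrb with 410.2 ± 26.0, Ppara with 361 ± 27.2, the internal Rxrg start with 273 ± 16.98, Rxra with 250.1 ± 24.4 and the first Rxrg start with 141 ± 20.8, and only the internal Rxrg start and Rxra overlapped as neighbours. In AKO iWAT Ppara followed Ppard with 458 ± 36.9, its range overlapping that of Rxrb with 399 ± 83.4. These levels depend on where the authors' peak edges fell, and levels of the separately scaled tissues were not compared.

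Of the member peaks, 24 pairs overlapped by at least 1 base between the tissues. In 14 pairs the fold changes had the same sign, 5 were lower in brown fat and higher in iWAT, and 5 the reverse. All 3 Rxrg pairs had the same sign, as had 9 of 15 Rxra, 2 of 4 Ppard and 0 of 2 Ppara pairs. Opposite signs without overlap of the genotypes in either tissue were seen in 3 pairs, the Ppara start, the Ppara upstream peak and the Rxra peak at 37.2 kb, each lower in AKO brown fat and higher in AKO iWAT. Among all 31936 pairs of overlapping peaks of the tables this was so for 265 pairs (0.83%), and the reverse for 205 (0.642%). The difference between the tissues was not tested, since the tables were normalized separately. Tissue cannot be told apart from cold acclimation, the pooling of mice or the sequencing instrument, which differed between the tissues. The age of the brown fat mice was not given, so that age cannot be told apart either.

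**Figure D4:**
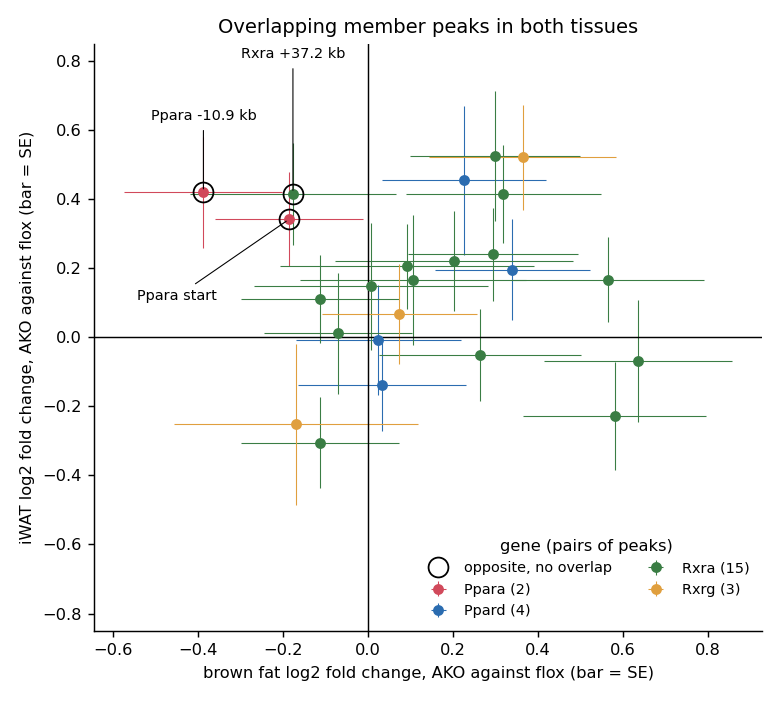
Log2 fold change of AKO against flox in brown fat (horizontal axis) and iWAT (vertical axis) with their SE for the 24 pairs of overlapping member peaks, coloured by gene. Rings mark the 3 pairs of opposite sign whose genotypes overlap in neither tissue, all in the upper left.

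Other genes of the pathway were read from the same fits, as lists drawn up from general knowledge. Of all brown fat peaks, 49.1% were negative, and 8.84% were lower and 8.77% higher without overlap. In brown fat Pparg, the family member that drives adipocyte formation, was negative at 20 of 21 peaks (median log2 fold change -0.33) and lower without overlap at 11. Its smallest p was in a peak of 190.3 ± 19.4 normalized reads over the flox and 94.0 ± 18.6 over the AKO samples (SD, n = 3), a log2 fold change of -0.97 ± 0.24 (limma adjusted p = 0.440). Genes induced by PPARs, which serve lipid uptake and fatty acid oxidation, were negative at 120 of 166 brown fat peaks (median -0.18), with 51 lower and 4 higher without overlap. Fatty acid carriers and acyl-CoA synthetases were negative at 48 of 65, with 16 lower and 2 higher, and coregulators at 84 of 142, with 18 lower and 7 higher. Among targets the smallest p was at a peak of Cyp4a10, a fatty acid hydroxylase (log2 fold change -0.89 ± 0.23, limma adjusted p = 0.441). Flox mice averaged 122 ± 8.27 normalized reads (SD, n = 3) there and AKO mice 79.0 ± 17.9, without overlap. For carriers it was Acsl5, an acyl-CoA synthetase (-0.90 ± 0.18, limma adjusted p = 0.431), at 176 ± 27.4 against 130 ± 38.1. For coregulators it was Ppargc1a, the coactivator PGC-1α (-1.30 ± 0.30, limma adjusted p = 0.436), at 62.0 ± 11.9 against 41.4 ± 22.7. The genotypes overlapped at the Acsl5 and Ppargc1a peaks, whose fold changes came from the fit with PC1.

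Partner receptors of RXR and genes of retinoid handling were positive at most of their brown fat peaks, and their shares without overlap in each direction are shown beside those of all peaks in the plot of lists. RXR partners were negative at 27 of 79 peaks (median 0.08), with 3 lower and 5 higher without overlap, and retinoid genes at 20 of 62 (median 0.17), with 2 lower and 7 higher. The partners were below the shares of all brown fat peaks without overlap in both directions (8.84% lower and 8.77% higher). At an unadjusted limma p under 0.05 the partners had 1 lower and 5 higher and the retinoid genes 4 lower and 4 higher, beside 5.59% lower and 3.46% higher of all brown fat peaks. Aldh1a2, which makes retinoic acid, had the smallest p of the latter, with a log2 fold change of 0.99 ± 0.22 in a peak of 15.3 ± 2.61 normalized reads in flox and 30.2 ± 0.63 in AKO samples. A peak of the thyroid hormone receptor Thrb had the smallest p of the partners, with a fitted log2 fold change of -0.89 ± 0.24 (limma adjusted p = 0.444). It held 66.4 ± 21.7 normalized reads in flox and 65.3 ± 33.9 in AKO samples (SD, n = 3). The means were thus nearly equal and the genotypes overlapped, although the fit with PC1 was negative. In iWAT, Pparg was negative at 3 of 6 peaks, PPAR targets at 38 of 82 (10 lower and 14 higher without overlap), fatty acid carriers at 17 of 33 (2 and 7), coregulators at 41 of 76 (14 and 7), RXR partners at 22 of 47 (3 and 5) and retinoid genes at 16 of 35 (3 and 2). Of all iWAT peaks, 50.1% were negative, and 10.3% were lower and 10.6% higher without overlap. The iWAT peaks of smallest p were those of Acsl1 among targets and carriers (0.79 ± 0.15), Crebbp among coregulators (-0.94 ± 0.17), Thrb among partners (0.74 ± 0.17) and Pparg (0.43 ± 0.18). Acsl1, Fabp3 and Fabp4 stand in both the target and the carrier list. Fabp4 was also counted among the general adipocyte markers and Ppargc1a among the thermogenic adipocyte markers, so that these lists are not separate from the markers. No peak of any list was called by limma. DESeq2 called 2 PPAR target peaks lower in brown fat, beside 0.298% lower of all tested brown fat peaks. In iWAT it called 1 peak lower of the coregulators, 1 of the targets and 1 of the carriers, beside 0.63% lower of all tested iWAT peaks. By edgeR 1 PPAR target was called lower in brown fat, beside 0.114% lower of all brown fat peaks. In iWAT edgeR called 2 targets lower and 4 higher, 4 coregulator peaks lower and 1 higher, 2 carrier peaks in each direction, 2 RXR partner peaks lower, 1 Pparg peak higher and 0 peaks of the retinoid genes, beside the 2.52% lower and 2.15% higher of all iWAT peaks.

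**Figure D5:**
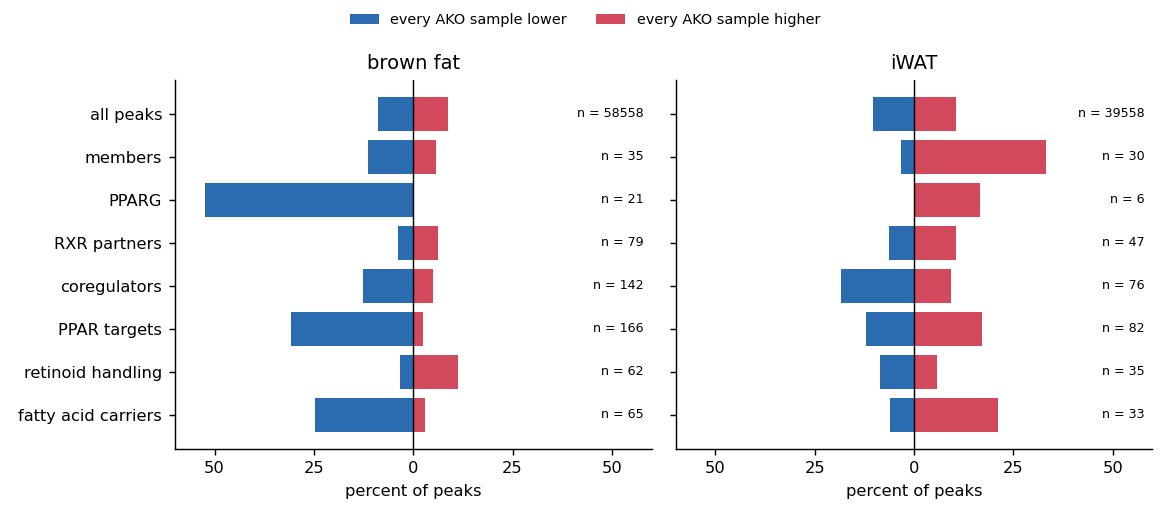
Percent of peaks whose genotypes do not overlap, lower in AKO (left of 0) or higher (right of 0), for all peaks of the table, the member peaks and each list of pathway genes, in brown fat and iWAT. Member peaks lean to higher values in iWAT, with 10 of 30 higher and 1 lower, while Pparg, PPAR targets and fatty acid carriers lean to lower values in brown fat.

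Over the 6 brown fat samples, the genes whose summed peaks followed a member most closely were Mbnl2 and Ly86 for Ppara (Pearson's r of the log2 sums 0.995 for each), Sod2 (0.999) and Acat2 (0.998) for Ppard, Ncstn (0.997) and Timmdc1 (0.995) for Rxra, and Zfp13 (0.992) and Rab11a (0.990) for Rxrg. Among 17115 genes, 155 reached an r of 0.95 with Ppara, 396 with Ppard, 36 with Rxra and 47 with Rxrg. These samples share depth and PC1 as well as genotype, and the correlations are given as a description.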

How the data were processed

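The authors trimmed adapters, mapped 38-base read pairs to mm10 with BWA 0.7.17-r1188 (iWAT reads were trimmed to that length), removed duplicates with Picard 2.8.14, kept autosomal reads of high mapping quality, called broad peaks with MACS2 2.1.1.20160309 per sample and counted reads in the union of peaks. The deposited signal values are counts of reads that the authors scaled with 1 size factor for each sample, and whole reads were recovered for 100% of them. The deposited log2 fold changes, test scores and p-values, which the authors made with DESeq2 1.20.0, were not used, and 0 columns of sample values were left out. The brown fat table was identified by its PC1 covariate.

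Each table was fitted with limma 3.58.1 in R 4.3.3 on log2(normalized reads + 1) over all peaks, AKO against flox. PC1 of the samples was added in brown fat alone, and p-values were adjusted after Benjamini-Hochberg and read at 0.1. The covariate and the threshold follow the study, whose own test was DESeq2 and not limma. Alternatives were DESeq2 1.42.0 and edgeR 4.0.16 on recovered reads, other scalings, pseudocounts of 0.1 and 10, at least 10 reads in every sample, a threshold of 0.05, each sample left out, blocks by replicate number and the choice of PC1. Scripts were tested on simulated data. The median peak held 70 to 226 reads in brown fat and 62 to 98 in iWAT samples, which limits precision at small peaks. Positions are mm10 with both ends included, and sequences come from that genome. Genes follow GENCODE, and distances run from the start of the reference transcript to the peak's midpoint. Named peaks were, per gene and tissue, those at the start, with the smallest p and with most reads, and the smallest p of each list. Peaks named besides, and the search for AGGTCA alone, were chosen after values were seen. Some results on a marker list and a pathway list are not reported here. The members and lists were chosen with earlier results of these data known.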

Additional observations from a re-analysis of the deposited data

Results flagged for a closer look

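Values of opposite sign in the tissues, with no overlap of the genotypes in either, drew attention to 3 pairs of peaks. The Ppara peak upstream of the gene had a log2 fold change of -0.39 in brown fat and 0.42 in iWAT. At the Ppara start the values were -0.19 and 0.34. The Rxra peak in intron 1 had -0.18 and 0.42. The difference between the tissues was not tested in any of the 3 pairs.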

How the results depend on the processing

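Limma called 0 member peaks under every alternative in both tissues, whereas DESeq2 and edgeR called 1 iWAT peak each, the Ppara start, at log2 fold changes of 0.35 and 0.35. The main limma fit called no peak of either table, not even the intronic Smarcd1 peak of brown fat (limma adjusted p = 0.269). Its 0 calls thus do not set the members apart from other peaks. Without each sample in turn, the median of all members ran from -0.10 to 0.07 in brown fat and from 0.11 to 0.15 in iWAT. Counting peaks within a gene or 10 kb of it instead of by assigned symbol gave 47 brown fat peaks, 10 of them without overlap (6 lower and 4 higher). In iWAT it gave 31 peaks, 10 of them without overlap (0 lower and 10 higher). Of all peaks, 8.84% were lower and 8.77% higher without overlap in brown fat, and 10.3% and 10.6% in iWAT. Member peaks with a PPAR element went from 5 to 2 with 1 mismatch fewer and to 16 over whole peaks in brown fat, where all peaks had 4.57% and 49.8%, and from 4 to 0 and to 11 in iWAT, with 3.61% and 42.1% of all. Scaling by total reads gave 2 lower and 3 higher brown fat members without overlap, against 4 and 2. PC1 of iWAT separated the genotypes, so that adding it left little of the contrast: the member median became -0.34, the Ppara start -0.53, Rxra at -5.2 kb -0.36 and at its start -0.075, Rxrb 1.51 and the internal Rxrg start -1.64. Without PC1 in brown fat the Ppard start became -0.13, Ppard at 3.8 kb -0.19 and the internal Rxrg start -0.31, and the median of all members -0.05. Ppard at 3.8 kb, near 0 throughout, was also negative with cyclic loess (-0.042), total reads (-0.0039), and without single samples ranged from -0.083 to 0.26, negative for AKO replicate 1, AKO replicate 2 and flox replicate 2. Rxrb ran from -0.17 to 0.12 without single aliquots, positive without AKO replicate 1. Same-numbered samples did not deviate together throughout (correlations 0.49, 0.06 and -0.24 in brown fat and -0.04, -0.05 and -0.06 in iWAT). In brown fat, unlike-numbered samples ran from -0.54 (flox replicate 1 with AKO replicate 2) to 0.48 (flox replicate 3 with AKO replicate 2). The replicate block called 0 member peaks, with medians of 0.03 and 0.16, and put Ppard at 3.8 kb at -0.054, the Rxra start at 0.13 and the Rxrg start at 0.55 in brown fat. The causes of these changes were not tested. All values rest on 3 samples per genotype and tissue, which in iWAT are technical aliquots.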
